A study of Rattus norvegicus with 8 samples.

Results

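The A-type potassium channel genes described here are the pore-forming genes of the Shal family (Kcnd1, Kcnd2 and Kcnd3), the Kv channel-interacting protein (KChIP) genes Kcnip1, Kcnip2, Kcnip3 and Kcnip4, and Dpp6 and Dpp10, which encode dipeptidyl peptidase-like subunits. They were taken as every non-control spot whose gene name in the scanner files was one of these 9 names, which gave 11 spots, each of a different probe, of 43379 non-control spots with 35199 names. All 9 genes were among the 20787 genes quantified in every rat. RNA came from the dentate gyrus (DG) of 8 adult female Sprague-Dawley rats that were ovariectomized (OVX) and underwent status epilepticus (SE) induced by kainic acid. The 4 rats labelled AO received oil (COS) and the 4 labelled AE received estradiol replacement (E2, given as EB; CES), and each channel of a 2-colour array held the RNA of 1 rat. Per the sample records, the CES rats received 4 doses of 2 µg of estradiol, of which some preceded and some followed SE, and SE induced with 16 mg/kg of kainic acid was ended with pentobarbital after 5 h. The study's methods give another dose of kainic acid, another drug to end SE and all E2 injections before SE, and they state the time of tissue collection in different ways. Which of these accounts applies to the 8 rats is not known from the files. Rats without SE were not analysed here, and how SE itself changed these genes cannot be read from CES against COS.

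A-type channels open at subthreshold voltages and inactivate fast, and they delay the first action potential and damp the back-propagation of action potentials into dendrites. In neurons the Kv4 pore-forming subunits encoded by the Kcnd genes assemble with cytoplasmic KChIPs, which are calcium-binding proteins that set surface expression and inactivation, and with the transmembrane proteins DPP6 and DPP10, which carry the complex to the membrane and speed its gating. Kv4.2, the product of Kcnd2, is the main Kv4 subunit in the dendrites of hippocampal principal neurons and granule cells, and it is known in epilepsy research as a channel whose loss raises dendritic excitability.

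The probes decide what each name stands for. Each gene had 1 probe of 60 bases, apart from Kcnd3 and Kcnip1 with 2 each. In the positions that the files give for rn4, Kcnd1 was probed on chromosome X at 26697238 to 26697297, Kcnd2 on chromosome 4 at 48046384 to 48046443 and Kcnip4 on chromosome 14 at 67452493 to 67452552. The Kcnip2 probe spanned 251011241 to 251011585 of chromosome 1, the Kcnip3 probe 114961933 to 114962584 of chromosome 3, the Dpp6 probe 2858442 to 2861962 of chromosome 4 and the Dpp10 probe 35543100 to 35543394 of chromosome 13. These spans of 345, 652, 3521 and 295 bases are longer than the probes, so each of these 4 alignments holds a gap, as a probe across an exon junction does. Whether the other probes lie in coding sequence or in a UTR is not given in the sources used here. The sequences of these 4 probes, read from the scanner files, show the part of each of these 4 transcripts on which its value rests:
Kcnip2: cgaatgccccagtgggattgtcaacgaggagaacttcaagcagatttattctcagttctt
Kcnip3: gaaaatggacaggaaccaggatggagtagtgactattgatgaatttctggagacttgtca
Dpp6: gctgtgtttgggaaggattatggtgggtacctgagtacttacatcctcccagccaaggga
Dpp10: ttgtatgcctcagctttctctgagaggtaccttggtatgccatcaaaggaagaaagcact

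A pair of genes could be read only with reserve. Both Kcnd3 probes were placed on chromosome 3 (128922797 to 128922856 and 128924211 to 128924270), whereas the RefSeq annotation of GRCr8 has Kcnd3 on chromosome 2. The mapped probes of the other 8 genes lay on the chromosome that RefSeq gives for their gene. Of the Kcnip1 probes, A_44_P191742 lay on chromosome 10 at 18562052 to 18562111, while A_44_P499954 was listed as unmapped. Laid side by side without gaps, they shared a stretch of 34 bases in which 27 matched and 7 differed, and the differing bases are in capitals:
A_44_P191742: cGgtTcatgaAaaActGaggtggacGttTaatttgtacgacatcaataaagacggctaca
A_44_P499954: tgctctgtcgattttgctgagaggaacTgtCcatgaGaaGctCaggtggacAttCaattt
A further probe, named Kchip2 in the files and therefore no member, was also unmapped and was not well above background in any rat.

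The scanner software found 19543 to 26687 spots in the COS rats and 20026 to 28488 in the CES rats well above background, and no non-control spot was saturated. Levels are log2 values relative to the median valid spot of the same channel, where a valid spot has a foreground at least 2 times its local background. On this scale CES minus COS had a median of −0.25 (log2) across the 20787 genes, and each gene's difference is also given after subtracting this shift (shift-corrected below). The groups were compared in a limma model that held a dye effect and treated arrays as random blocks, p-values were adjusted across all genes after Benjamini and Hochberg, and a gene was called at an adjusted p under 0.05. It called 5.74% of all genes higher and 28.6% lower in CES. When the scaling median was taken only from spots valid in every rat (common-spot scaling) instead, it called 16.3% higher and 8.55% lower. Each array held rats of 1 group, so differences between arrays could not be fully separated from the difference between groups. In the reported fit the estimated correlation within arrays was −0.0104, so its p-values treat the channels nearly as independent. With another background correction (normexp) this correlation was 0.562. Across genes, which are not independent replicates, the rat labelled CES replicate 2 went against its label: the median correlation of its levels was 0.979 with the COS rats and 0.962 with the other CES rats. The other 3 CES rats had medians between 0.978 and 0.981 within their group and between 0.934 and 0.940 with the COS rats. Results are therefore given with and without this rat. Because it was singled out for its likeness to the COS rats, leaving it out tends to widen the group differences and narrow the CES spread. Fits without it are therefore descriptions and no separate support.

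Of the 9 genes, limma called Kcnd2, Kcnip2 and Kcnip4 higher in CES and 0 lower, where it called 5.74% and 28.6% of all genes. At an unadjusted p under 0.05 the counts were 3 higher and 0 lower, beside 9400 of all 20787 genes in either direction. The methods' t-test, which allows unequal variances, called 0 of the 9 and 0 of all 20787 genes after adjustment. Without CES replicate 2, Dpp6 was called higher as well, which made 4 of 9 against 8.68% of all genes. The median log2 difference of the 9 genes was 0.35, or 0.60 shift-corrected, and 8 of the 9 estimates were above 0. The count was 1 when COS replicate 1, COS replicate 3, COS replicate 4 or CES replicate 1 was left out, and Kcnd2 was then the gene called. The share of all genes called higher in these fits was 2.39%, 1.37%, 2.51% and 2.57%, so calls fell over all genes too. In the plot of levels by rat, Kcnd2 alone had all CES values above all COS values, as 1.55% of all genes did. This count depends on the scale: with the median gene of each rat subtracted, a scale added after the values were seen, 5 of the 9 genes (Kcnd1, Kcnd2, Kcnip2, Dpp6 and Dpp10) and 17.5% of all genes separated in this direction. Without CES replicate 2, and on the original scale, 5 of the 9 (Kcnd2, Kcnip2, Kcnip4, Dpp6 and Dpp10) and 7.79% of all genes did. In bulk tissue, fewer cells of a type and less RNA per cell cannot be told apart.

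**Figure D1:**
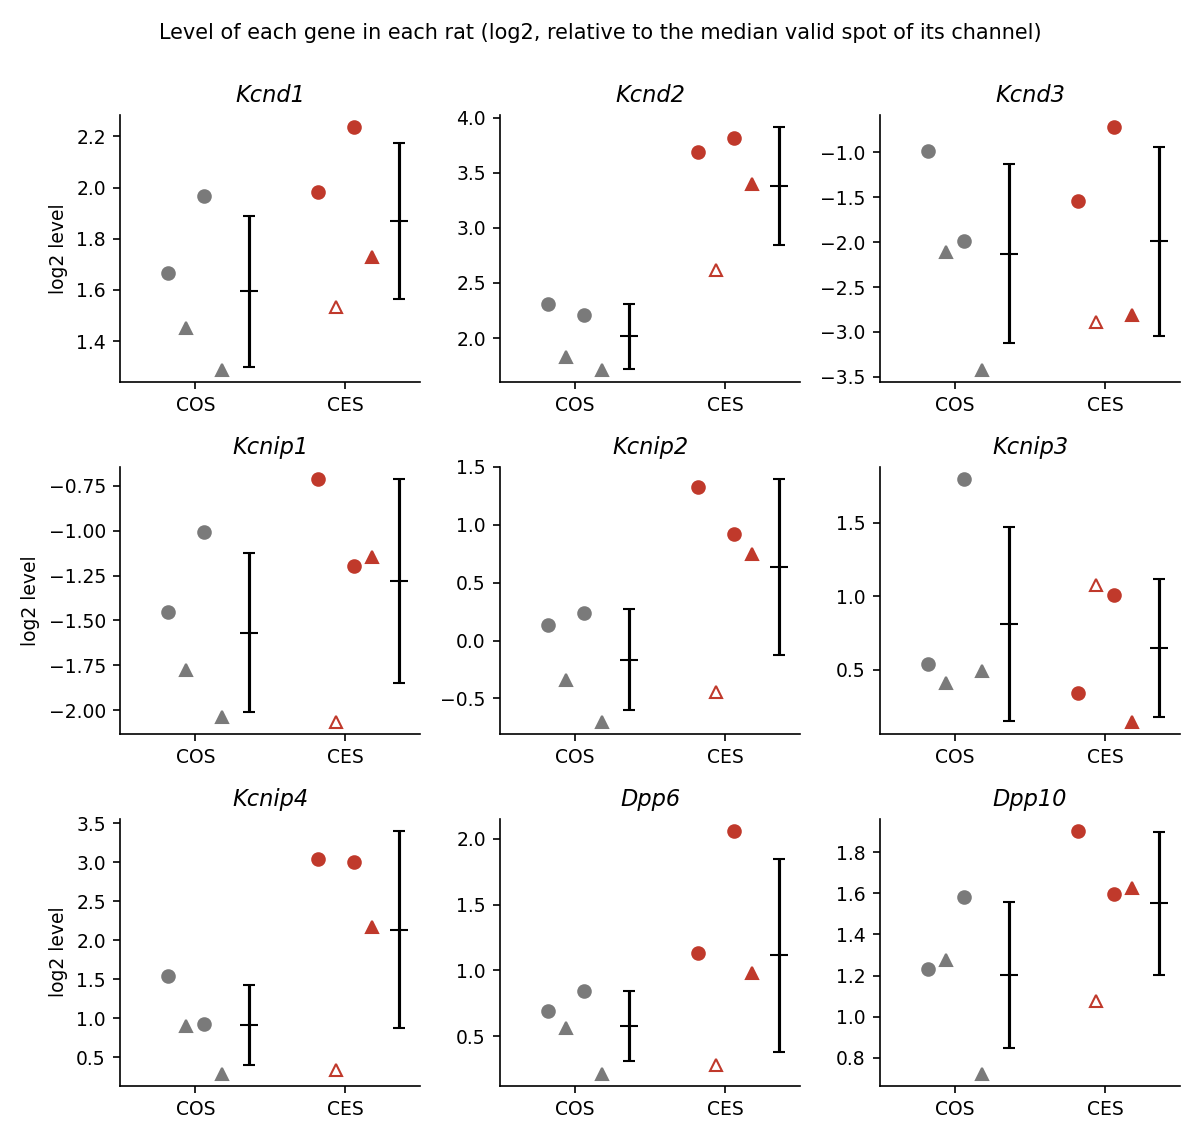
Log2 level of each of the 9 genes in each rat, relative to the median valid spot of its channel (vertical axes, different range in each panel), for the 4 COS (grey) and 4 CES (red) rats. Circles are Cy3 and triangles Cy5 channels, the open triangle is CES replicate 2, and bars give the mean ± SD. For Kcnd2 all CES values exceeded all COS values, and for Kcnip2, Kcnip4 and Dpp6 the rat labelled CES replicate 2 lay among the COS rats.

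Kcnd2 had the clearest difference. The mean spot intensity of its probe was 1670, 2070, 1140 and 2390 in COS replicates 1 to 4 and 3520, 3870, 2930 and 5240 in CES replicates 1 to 4, over local backgrounds of 32.0 to 49.0. The spot was well above background in every rat, and the intensities did not overlap even before any scaling. The log2 level was 2.31, 1.82, 2.21 and 1.71 in the COS rats and 3.68, 2.62, 3.82 and 3.40 in the CES rats. COS averaged 2.02 ± 0.29 (SD, n = 4), and CES averaged 3.38 ± 0.54 (SD, n = 4). CES replicate 2 lay between the COS rats and the other CES rats. The log2 difference was 1.36 (standard error 0.20, limma adjusted p = 0.00329), a 2.57-fold higher level, and 1.62 shift-corrected. A larger shift-corrected difference in either direction was found for 2.78% of all genes. Within the Cy3 channels the difference was 1.49 and within the Cy5 channels 1.24. Without CES replicate 2 it was 1.55 (standard error 0.17, limma adjusted p = 6.3e-05). The call was lost under 1 of 25 alternatives, the methods' t-test with adjustment across all genes (adjusted p = 0.0850, unadjusted p = 0.00789). Some alternatives could not change the Kcnd2 values, which came from 1 probe without an outlier flag. Keeping flagged spots and taking each gene's brightest probe were among these. The paper's methods describe a fold-change cut-off and a correction for redundant spots of a gene, and no adjustment across genes.

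Kcnd1 encodes Kv4.1, another pore-forming Kv4 subunit. Its log2 level was 1.67, 1.45, 1.97 and 1.29 in the COS rats and 1.98, 1.54, 2.24 and 1.73 in the CES rats. The groups overlapped, and the difference of 0.28 (95% confidence interval −0.083 to 0.64, limma adjusted p = 0.209) was not called. Shift-corrected it was 0.53, and it was 0.29 within the Cy3 and 0.26 within the Cy5 channels. It was 0.32 without CES replicate 2 (limma adjusted p = 0.171). The difference became 0.56 to 0.67 with an adjusted p of 0.0118 to 0.0243 with common-spot scaling, with the deposited log2 table, and with loess or quantile normalization.

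Kcnd3 encodes Kv4.3, which is known from hippocampal interneurons. Of the probes carrying its name, A_44_P125646 was well above background in no rat, so its level has only an upper bound and no difference is given. The other, A_44_P1052794, passed that mark in 4 rats, 2 of each group. Its log2 level was −0.98, −2.12, −1.99 and −3.42 in the COS rats and −1.54, −2.89, −0.72 and −2.81 in the CES rats. The values of both groups covered nearly the same range. The difference of 0.14 had a 95% confidence interval from −0.60 to 0.87 and was not called (limma adjusted p = 0.778), and without COS replicate 3, COS replicate 4 or CES replicate 3 it was −0.056, −0.029 and −0.079. It was 0.20 without CES replicate 2 (limma adjusted p = 0.684). Whether these probes measure Kcnd3 was not tested.

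Among the KChIPs, Kcnip4 had the largest estimate. Its product, KChIP4, occurs in variants of which one slows the inactivation of Kv4 channels. The mean spot intensity was 998, 1110, 499 and 916 in COS replicates 1 to 4 and 2260, 821, 1680 and 2250 in CES replicates 1 to 4. The log2 level was 1.54, 0.90, 0.93 and 0.29 in the COS rats and 3.04, 0.34, 3.00 and 2.16 in the CES rats. CES replicates 1, 3 and 4 lay above every COS rat, whereas CES replicate 2 lay below 3 of them. The difference was 1.22 (standard error 0.39, limma adjusted p = 0.0355), a 2.33-fold higher level, and 1.48 shift-corrected. It was 1.79 within the Cy3 channels and 0.66 within the Cy5 channels, which hold CES replicate 2. Without that rat it was 1.70 (standard error 0.22, limma adjusted p = 0.000202), a 3.24-fold higher level. With the replicate number as a block, the call was lost (adjusted p = 0.0560). Loess, quantile, common-spot scaling and the deposited table also put it just past the threshold (adjusted p from 0.0596 to 0.0642), and normexp, no spot filter or a stricter one, and the methods' t-test gave adjusted p-values from 0.0764 to 0.342. It was also lost without any one of COS replicates 1, 3 and 4 and CES replicates 1 and 3 (adjusted p from 0.0531 to 0.181).

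Kcnip2 encodes KChIP2, which raises the surface density of Kv4 channels. Its log2 level was 0.14, −0.34, 0.24 and −0.70 in the COS rats and 1.32, −0.45, 0.92 and 0.74 in the CES rats. As for Kcnip4, CES replicates 1, 3 and 4 lay above all COS rats and CES replicate 2 among them. The difference was 0.80 (standard error 0.25, limma adjusted p = 0.0346), and 1.06 shift-corrected. Within the Cy3 channels it was 0.94 and within the Cy5 channels 0.67, and without CES replicate 2 it was 1.06 (standard error 0.19, limma adjusted p = 0.00146). The call was lost without COS replicate 1, 3 or 4 or CES replicate 1 (adjusted p from 0.104 to 0.146). Normexp, no spot filter or a stricter one, the deposited table and the methods' t-test did not call it either (adjusted p from 0.0541 to 0.455).

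Kcnip3 had the only estimate below 0 among the 9 genes. It encodes KChIP3, also known as calsenilin or DREAM, which acts as a Kv4 subunit and as a calcium-regulated transcriptional repressor. Its log2 level was 0.54, 0.41, 1.80 and 0.49 in the COS rats and 0.34, 1.08, 1.01 and 0.15 in the CES rats. COS replicate 3 stood above the other 3 COS rats, and the groups overlapped. The difference was −0.17 (95% confidence interval −0.88 to 0.55, limma adjusted p = 0.717), and it was 0.15 without COS replicate 3 and −0.41 without CES replicate 2, neither called. Within the Cy3 channels it was −0.49 and within the Cy5 channels 0.16. Shift-corrected the difference was 0.089, and 86.8% of all genes had a larger one in either direction.

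Kcnip1, whose product is known from GABAergic interneurons, was dim. Probe A_44_P499954 was well above background in 2 rats, both CES, so its COS level has only an upper bound and no fold is given, while probe A_44_P191742 passed the mark in 6 rats, 3 of each group. Averaged over both probes, the log2 level was −1.45, −1.78, −1.01 and −2.04 in the COS rats and −0.71, −2.06, −1.20 and −1.14 in the CES rats. CES replicate 2 and COS replicate 4 were lowest, and the groups overlapped. The difference of 0.29 (95% confidence interval −0.23 to 0.80, limma adjusted p = 0.359) was not called, and neither was that of 0.47 without CES replicate 2 (adjusted p = 0.0992). Tested alone, the mapped probe gave a difference of 0.25 (standard error 0.22, limma adjusted p = 0.423).

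The DPP-like subunits had smaller estimates than Kcnd2. Both proteins are membrane-spanning relatives of dipeptidyl peptidase that lack its enzyme activity. For Dpp6 the log2 level was 0.69, 0.56, 0.85 and 0.22 in the COS rats and 1.14, 0.28, 2.06 and 0.98 in the CES rats. CES replicates 1, 3 and 4 lay above all COS rats and CES replicate 2 lay below 3 of them. The difference of 0.54 (95% confidence interval −0.035 to 1.11, limma adjusted p = 0.131) was not called. Without CES replicate 2 it was 0.74 (standard error 0.23, limma adjusted p = 0.0268), and it was also called with quantile normalization and with common-spot scaling (adjusted p = 0.0476 and 0.0483). Dpp10 stood at 1.23, 1.28, 1.58 and 0.72 in the COS rats and 1.90, 1.08, 1.60 and 1.63 in the CES rats. CES replicate 2 again lay among the COS rats. The Dpp10 difference was 0.35 (95% confidence interval −0.10 to 0.80, limma adjusted p = 0.208), or 0.46 without CES replicate 2 (adjusted p = 0.0985), and of the alternatives only loess with Aquantile normalization called it (adjusted p = 0.0454).

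**Figure D2:**
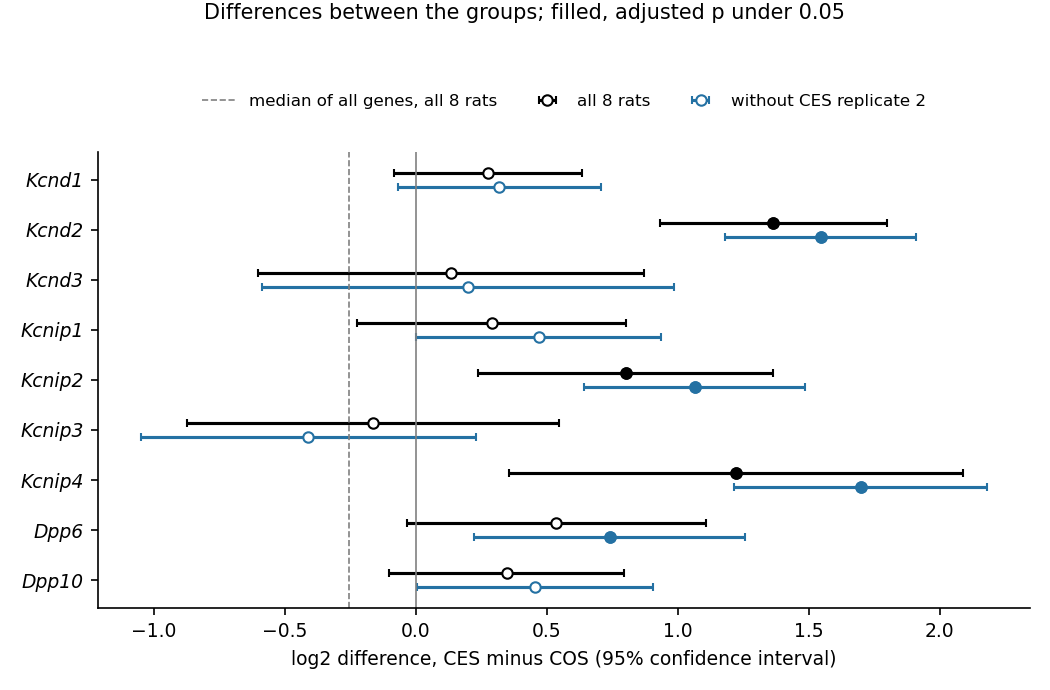
Log2 difference, CES minus COS, with its 95% confidence interval (horizontal axis) for each gene, from all 8 rats (black) and without CES replicate 2 (blue). Filled points have an adjusted p under 0.05, and the dashed line is the median of all genes, −0.25. The intervals of Kcnd2, Kcnip2 and Kcnip4 lay above 0 in both fits, and the interval of Kcnip3 included 0 in both.

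The spread between the 25 alternatives differed from gene to gene. Shift-corrected under each setting, Kcnd2 ranged from 1.48 to 1.82, Kcnip4 from 1.18 to 1.97 and Kcnip2 from 0.75 to 1.41. Kcnd1 ranged from 0.49 to 0.59, Dpp6 from 0.54 to 1.01 and Dpp10 from 0.48 to 0.79. Over the 23 alternatives that gave a value for Kcnd3, it ranged from 0.082 to 0.65, and Kcnip1 ranged from 0.18 to 0.74 over 25. Kcnip3 was the only member that changed side, with a range from −0.17 to 0.35.

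**Figure D3:**
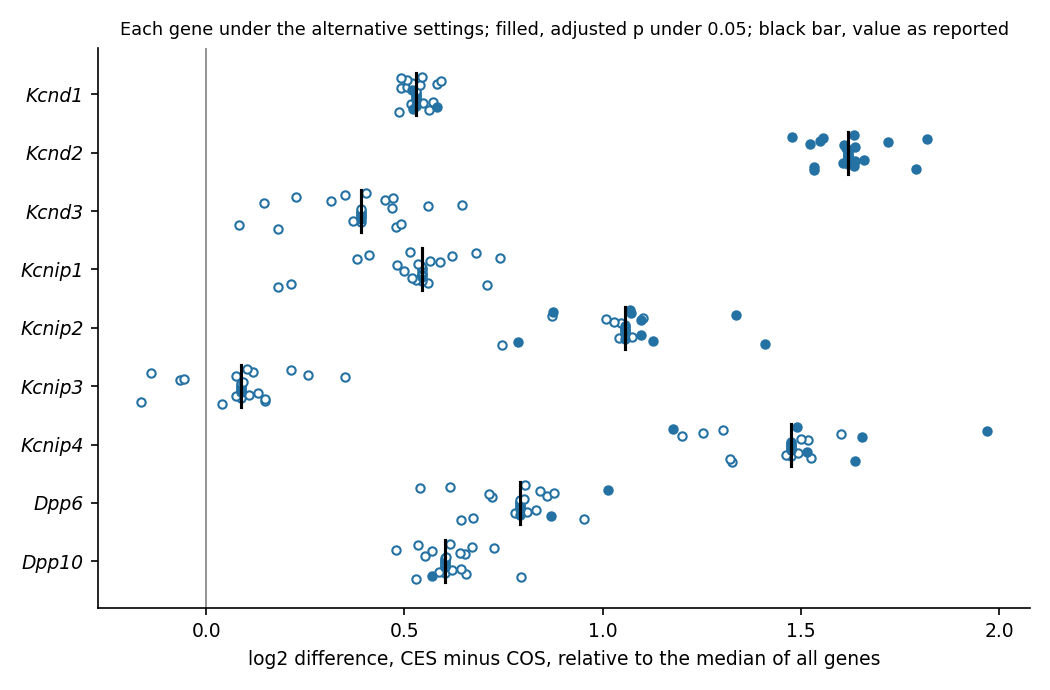
Log2 difference, CES minus COS, less the median of all genes under that setting (horizontal axis) for each gene under each alternative setting (points; filled where the adjusted p was under 0.05), with the reported value as a black bar. Kcnd2 stayed between 1.48 and 1.82, while the points of Kcnip3 lay on both sides of 0.

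The genes around the channel complex were read from 2 lists. The first held other A-type subunits and the cytoplasmic beta subunits that confer or modify inactivation of Kv1 channels, with 5 of 7 genes quantified. Limma called 2 of these higher and 0 lower, beside 5.74% and 28.6% of all genes. At an unadjusted p under 0.05 it was 3 and 0, beside 9400 of all 20787 genes in either direction. With common-spot scaling limma called 4 higher and 0 lower, beside 16.3% and 8.55% of all genes. The beta subunit genes Kcnab2 and Kcnab1 had log2 differences of 0.73 (standard error 0.19, adjusted p = 0.0157) and 0.62 (standard error 0.19, adjusted p = 0.0300). Kcna4, the gene of the A-type channel Kv1.4, had a difference of −0.21 (adjusted p = 0.473), which became 0.18 with common-spot scaling. Kcna1 was not valid in all rats, and the name Kcnc4 was not found on the array.

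The second list held proteins known to bind or to modify Kv4 channels, with 16 of 20 genes quantified, of which 2 were called higher and 3 lower. Of all genes, 5.74% were called higher and 28.6% lower. For Akap5, which encodes an anchoring protein for protein kinase A, CES exceeded COS by 1.19 on the log2 scale (limma adjusted p = 0.0175, standard error 0.31). Camk2a, the gene of a kinase subunit that phosphorylates Kv4.2, was higher by 0.94 (limma adjusted p = 0.0227, standard error 0.27). Flna encodes filamin A, an actin crosslinker that binds Kv4.2, and its log2 difference was −2.57 with a standard error of 0.51 (limma adjusted p = 0.00625), or −3.25 without CES replicate 2. Dlg1, the gene of a scaffold protein, had a difference of −0.61 (adjusted p = 0.0278). With common-spot scaling it became −0.22 (adjusted p = 0.303), while Akap5, Camk2a and Flna stayed called. The remaining 11 genes, among them Ncs1, the kinase genes Prkaca and Mapk3, and Fmr1, were not called. Without CES replicate 2, Camk2b was called higher too (0.60, adjusted p = 0.0347), while Kcnab1, Kcnab2, Akap5, Camk2a, Flna and Dlg1 were called as before. Over both lists, 4 genes were called higher and 3 lower, which became 0 and 2 without COS replicate 1, 0 and 0 without COS replicate 3, 1 and 1 without COS replicate 4, and 0 and 1 without CES replicate 1. Without COS replicate 2 it was 4 and 1. In the same order, the shares of all genes called higher and lower in these fits were 2.39% and 17.4%, 1.37% and 5.49%, 2.51% and 24.2%, 2.57% and 12.3%, and 5.07% and 19%.

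**Figure D4:**
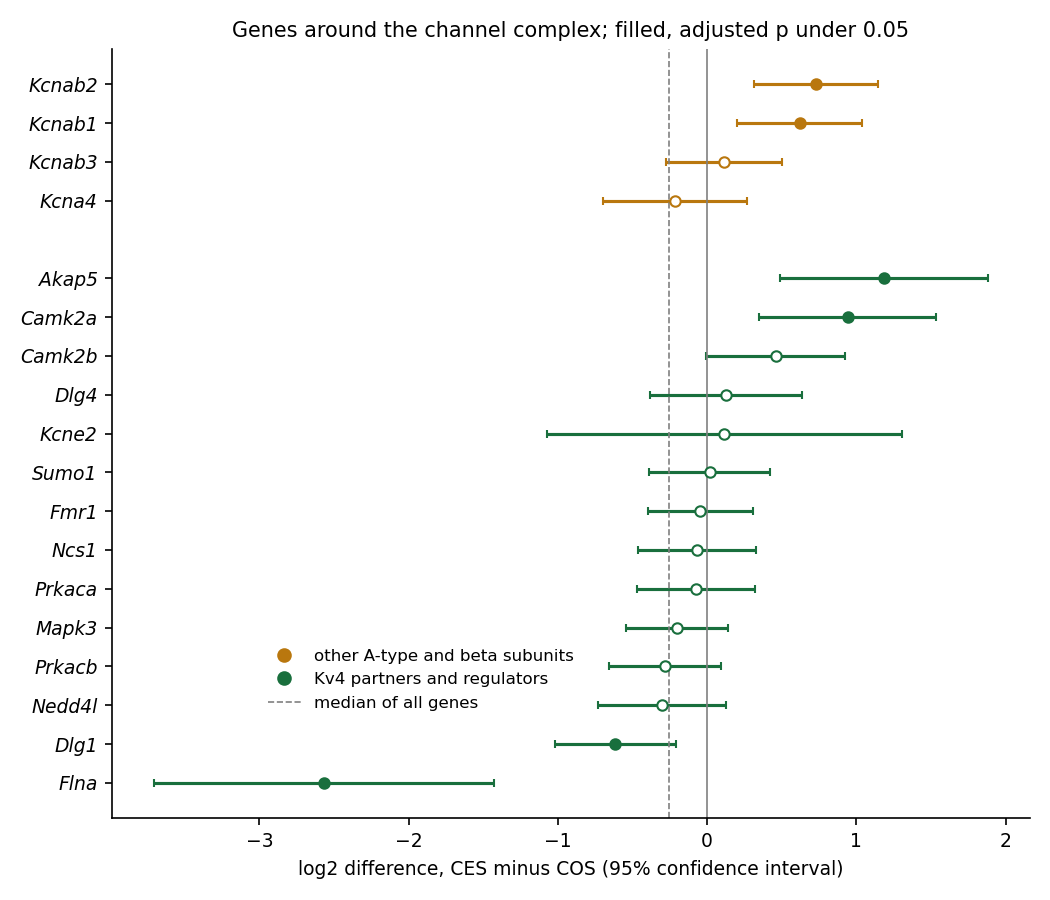
Log2 difference, CES minus COS, with its 95% confidence interval (horizontal axis) for quantified genes of the lists of other A-type and beta subunits (orange) and of Kv4 partners and regulators (green), all 8 rats. Filled points have an adjusted p under 0.05 and the dashed line is the median of all genes. Kcnab1, Kcnab2, Akap5 and Camk2a lay to the right of 0 and Flna farthest to the left, at −2.57.

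Kcnd2 was also compared with every other quantified gene by the root mean square distance between log2 levels, each centred on its mean over the 8 rats. The closest gene was Kcnh3, which encodes another voltage-gated potassium channel, Kv12.2, at a distance of 0.072. It was followed by the transcript FQ212857 (0.085), Pik3ip1, an inhibitor of phosphoinositide 3-kinase (0.11), Hrk, a BH3-only protein of the Bcl2 family (0.11), and the transcript TC608485 (0.11). All 5 had log2 differences between 1.23 and 1.43, near that of Kcnd2, which follows from choosing them by this distance. Of the other members, Kcnip2 was closest to Kcnd2, at a distance of 0.36 and rank 500 of 20786, and Kcnip3 was farthest, at 0.98 and rank 12798. The distances describe these 8 rats, in which all genes share the dyes and arrays.

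**Figure D5:**
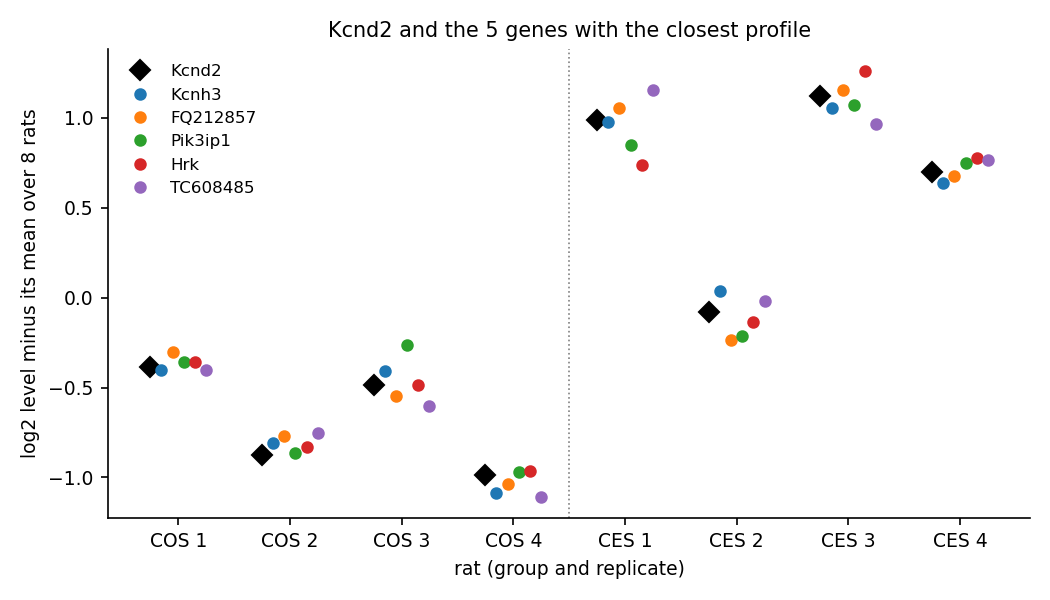
Log2 level minus its mean over the 8 rats (vertical axis) in each rat (horizontal axis) for Kcnd2 (black diamonds) and the 5 genes with the closest profile (coloured circles). In each of them CES replicates 1, 3 and 4 were highest. CES replicate 2 lay above the COS rats and below the other CES rats. The 5 genes were chosen for their likeness to Kcnd2 in these values.

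Calls among marker genes of the cells in the tissue depended on the scaling, as did those of all genes. Of all genes, 5.74% were called higher and 28.6% lower as reported, and 16.3% and 8.55% with common-spot scaling. Of the granule cell markers 4 of 5 were quantified, and limma called 3 lower in CES, or 0 with common-spot scaling. Their summed log2 level was 3.71 to 4.52 in COS and 3.21 to 3.75 in CES. Calb1, C1ql2 and Sema5b were well above background in every rat and each Dsp probe in 5 rats, while Prox1, a defining marker, was well above background in none. Of the interneuron markers 5 of 6 were quantified, and their summed level was 7.57 to 8.41 in COS and 6.14 to 7.26 in CES. Sst was the brightest of them, at a mean log2 level of 7.55 in COS against at most 4.87 for the others, and so carried most of the sum. Sst and Vip were called lower, while Pvalb had a difference of 0.51, or 0.76 shift-corrected (limma adjusted p = 0.0715). Common-spot scaling called 1 lower and 1 higher. The general neuronal markers had 1 of 3 called higher under both scalings, with a summed level of 7.94 to 8.36 in COS and 8.09 to 8.53 in CES. On the reported scale, limma called 1 higher and 2 lower of 4 markers of CA pyramidal cells (3.29 to 3.67 in COS, 3.29 to 3.86 in CES) and 2 higher of 5 of astrocytes (6.23 to 6.59 and 6.15 to 6.96). It called 1 higher and 2 lower of 5 of microglia (4.82 to 5.38 and 4.57 to 5.08) and 2 lower of 3 of endothelium (4.01 to 4.39 and 3.57 to 4.08). With common-spot scaling none of the markers called lower in these lists stayed called. For oligodendrocytes and choroid plexus limma called 0 of 5 each. At an unadjusted p under 0.05 it was 0 each as well, beside 9400 of all 20787 genes in either direction. The summed oligodendrocyte level was 7.78 to 8.64 in COS and 8.22 to 8.81 in CES, and that of choroid plexus spread from 3.74 to 9.26 in COS and from 4.00 to 7.59 in CES. What part these marker differences have in the differences of the channel genes was not tested.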

How the data were processed

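The 4 arrays held 8 rats, with replicates 1 and 3 of each group in Cy3 and 2 and 4 in Cy5, and each array held rats of 1 group. The authors deposited spot and local background intensity values from Agilent Feature Extraction 10.7.3.1 (probe positions on rn4), which precede normalization, and a processed intensity that this software had background-corrected and dye-normalized. A deposited log2 table was found to hold, up to 1 constant per rat, background-subtracted median spot signals. Samples were grouped by the source names in the records, and the channel was taken from the dye label.

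Spots with an outlier flag in any channel (1593 spots) were left out. The mean signal minus the background median of the remaining spots was scaled to the channel's median valid spot, averaged over the spots of a gene name valid in all 8 rats (26294 spots), and taken to log2. The number of arrays limits the precision; the median standard error was 0.20. The fit used limma 3.58.1 and statmod 1.5.0 in R 4.3.3, two-sided, and was tested on simulated data. In these, 200 of 20787 genes were changed and no array effect was included, so differences between arrays were not tested. The fit called 47% of the genes changed by 1 (log2) and 87% of those changed by 2. Of its 143 calls, 9 were false. Tables and plots were made with data.table (version 1.17.8), Python 3.11.15, numpy 2.4.6, pandas 2.3.3 and matplotlib 3.10.9. Same-numbered rats of the groups deviated together (r from 0.21 to 0.35), as did rats that shared only the dye (r from 0.21 to 0.44), and after a dye term r was −0.28 to 0.09; every same-numbered pair exceeded 0.1, but the number shares the dye, and the labels give no other pairing.

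The members and the lists of related and marker genes were chosen with earlier results of these data known. All members are named, with the called genes of both related lists, those of the largest difference, the 5 genes closest to Kcnd2 in profile, and others chosen after their values were seen. The alternatives were normexp, the processed intensity, loess with Aquantile, quantile normalization, other filters and scalings, outlier spots kept, no array block, no dye term, a replicate block, other probe and name choices, leaving out rats one by one, the methods' t-test and the deposited log2 table. Some genes of the related lists are counted but not reported here by name.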

Additional observations from a re-analysis of the deposited data

Results flagged for a closer look

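Of the 18 sets of 4 values formed by the 9 genes and both groups, 1 held a rat far from the others. The log2 level of Kcnip3 was 1.80 in COS replicate 3 and between 0.41 and 0.54 in the other COS rats, a gap of 0.91 of the group's whole range, above Dixon's 95% critical value. Chance flags about 5% of such sets. Without this rat the Kcnip3 difference, CES minus COS, was 0.15 in place of −0.17, and neither was called.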

How the results depend on the processing

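Each gene's difference was recomputed under 25 alternatives, or 23 for Kcnd3. The difference kept its direction under all of them for Kcnd1, Kcnd2, Kcnip1, Kcnip2, Kcnip4, Dpp6 and Dpp10. Kcnip3 turned to 0.19 with loess and Aquantile normalization, 0.23 with quantile normalization, 0.23 with common-spot scaling and 0.21 with the deposited log2 table, and ranged from −0.41 to 0.15 when each rat was left out. Kcnd3 ranged from −0.079 to 0.45 on leaving out each rat. None of these were called. The number of the 9 genes called higher, 3 as reported, was 1 with normexp, 1 without the filter on valid spots, 1 with the stricter foreground (3 times background), 0 by the methods' t-test, 2 with the deposited table, 4 with loess and Aquantile, quantile normalization and common-spot scaling, and 1 to 4 on leaving out each rat. The related genes called higher, 4 as reported, numbered 0 with normexp, without the filter and by the t-test, 8 with loess and Aquantile, 7 with quantile normalization, common-spot scaling and the deposited table, and 0 to 6 on leaving out each rat. Those called lower, 3 as reported, numbered 1 with normexp, without the filter, with the stricter foreground, loess and Aquantile, quantile normalization, common-spot scaling and the deposited table, 0 by the t-test, and 0 to 4 on leaving out each rat. With the replicate number as a block, 2 of the 9 genes were called higher, Kcnip4 being lost with a difference of 1.22 (adjusted p = 0.0560), and no other member changed its call. The cause of these changes was not tested.

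Over all genes, 1194 were called higher and 5943 lower as reported. The counts were 135 and 483 with normexp, 3249 and 2207 with loess and Aquantile, 3147 and 2132 with quantile normalization, 3380 and 1778 with common-spot scaling, 391 and 2715 without the filter, 1222 and 2805 with the stricter foreground, 3210 and 1923 with the deposited table, and 285 to 1805 and 1141 to 6940 on leaving out each rat. The methods' t-test called 0 after adjustment, with 5900 genes at an unadjusted p under 0.05 against 9400 by limma. The brightness of a spot limits what can be seen of Kcnd3 and Kcnip1.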
